A study of Drosophila melanogaster with 32 samples.

Results

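Metchnikowin (Mtk) and defensin (Def) are 2 of the 3 antimicrobial peptide genes followed here, chosen by their FlyBase symbols Drs, Mtk and Def among the 17559 genes of the count files. Mtk and Def were matched by symbol. The identifier that the reference table pairs with drosomycin (Drs) was not matched to the count files, and Drs is not analysed here, which says nothing of its level. The files hold 306 genes with no symbol in the reference table, and Drs may be among them under another identifier. The genes were measured by RNA sequencing of heads of male Drosophila melanogaster in 32 libraries of 4 strains. Per the series title, the study concerns Hsp70, a heat-induced chaperone, in memory and gene expression. The labels' protocols give about 100 snap-frozen flies to a replicate, and libraries were prepared from their polyadenylated RNA.

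Strain w+hsp70- had 3 libraries of naive flies and 3 of flies 5 h after training, and hsp70- had the same numbers. For hsp70-4c there were 4 libraries of naive flies, 3 of flies 5 h after training and 3 at 24 h, and for hsp70-1c the same numbers. The labels give these strain names as the genotype and do not describe the alleles or the training. Naive hsp70-4c samples carry titles that call them a control for 5 h, while their time label is naive, and they were used as naive. The 4 strains are separate lines, so strain, genetic background and any batch of rearing or library making cannot be told apart. Each library is a pool of whole heads, so its replicates are pools and not single flies.

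Antimicrobial peptides are short secreted proteins of the fly's innate defence. The fat body, which also lies in the head, releases them into the haemolymph, and blood cells and epithelia make some too. Bacterial and fungal cell wall material switches them on through the Toll and Imd pathways, which end in transcription factors of the NF-kappaB family. Metchnikowin is a proline-rich peptide that acts on fungi and Gram-positive bacteria and can be switched on by either pathway. Defensin is a cysteine-rich peptide that acts mainly on Gram-positive bacteria, and drosomycin is an antifungal peptide known as a read-out of Toll.

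Libraries held 4.54 to 10.34 (median 7.38) assigned reads in units of 1e+06 reads, and 58.2% to 68.7% of reads fell in no annotated gene. Summed counts of the 6 inducible Hsp70 genes were 22 to 54 in hsp70-4c libraries, 0 to 4 in hsp70-1c, and 0 to 1 in w+hsp70- and in hsp70-. Reads shared between these gene copies may be lost in counting, so low sums do not show that Hsp70 RNA was absent. The w gene, which encodes a transporter of eye pigment precursors, had 72.0 to 98.3 CPM (counts per 1e+06 reads) in w+hsp70-, 0 to 0.404 in hsp70-, 21.9 to 40.0 in hsp70-4c and 5.21 to 9.92 in hsp70-1c. Defining markers of a head were present: over the libraries the 6 neuron markers found summed to 673 to 1366 CPM and the 8 photoreceptor markers to 21340 to 42760 CPM, while the 8 testis markers summed to 0.451 to 19.4 CPM. The 13 gut enzyme markers summed to 4466 to 23700 CPM, so RNA of genes known from the gut was present too.

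Mtk (FBgn0014865) lies on chromosome 2R from 15408846 to 15409113 on the plus strand in the BDGP6 annotation of the dm6 genome. It is a gene of 1 exon of 268 bases inside the span of Stacl, on the same strand and with no exon of Stacl overlapping it. Def (FBgn0010385) lies on 2R from 10054178 to 10054576 on the minus strand, as 1 exon of 399 bases inside the span of magu, which runs the opposite way and has no exon there. The strand setting of the counting is not given in the sources used here, so reads of magu's intron and of Def cannot be told apart. The host gene magu had 7.001 to 17.5 CPM in w+hsp70-, 7.76 to 14.3 in hsp70-, 10.6 to 16.6 in hsp70-4c and 11.5 to 15.2 in hsp70-1c. In CPM that is of the size of Def itself in the strains with low Def, but it counts the whole host gene. Reads of magu's intron at Def were not measured, so the likeness in CPM does not give their share in Def. Stacl had 48.7 to 62.4 CPM in w+hsp70-, 40.03 to 74.3 in hsp70-, 53.4 to 66.4 in hsp70-4c and 50.6 to 64.8 in hsp70-1c. It shares the strand of Mtk, so reads of its intron and of Mtk cannot be told apart under any strand setting. Mtk had medians of 41.0, 23.5 and 31.6 CPM in w+hsp70-, hsp70- and hsp70-4c, below those of Stacl (53.8, 61.5 and 64.2). The Stacl values also count a whole gene and are not scaled for length. Reads of its intron at Mtk were not measured, so their share in Mtk is not known. Every library had reads of both peptide genes, 76 to 2718 counts of Mtk and 24 to 954 counts of Def.

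Per kilobase of exon, Mtk was the higher of the pair in 29 of 32 libraries. The ratio of Mtk to Def per kilobase in hsp70-4c was 1.3 to 3.51 across naive libraries, 1.85 to 11.2 across 5 h libraries and 1.54 to 4.06 across 24 h libraries. In hsp70-1c the naive libraries had ratios of 0.376 to 6.03, the 5 h libraries 2.91 to 3.25 and the 24 h libraries 1.27 to 4.6. In w+hsp70- and hsp70- every library had a ratio above 1, from 1.81 to 25.7. The libraries in which Def was the higher were 3 of the 4 naive hsp70-1c libraries.

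**Figure D1:**
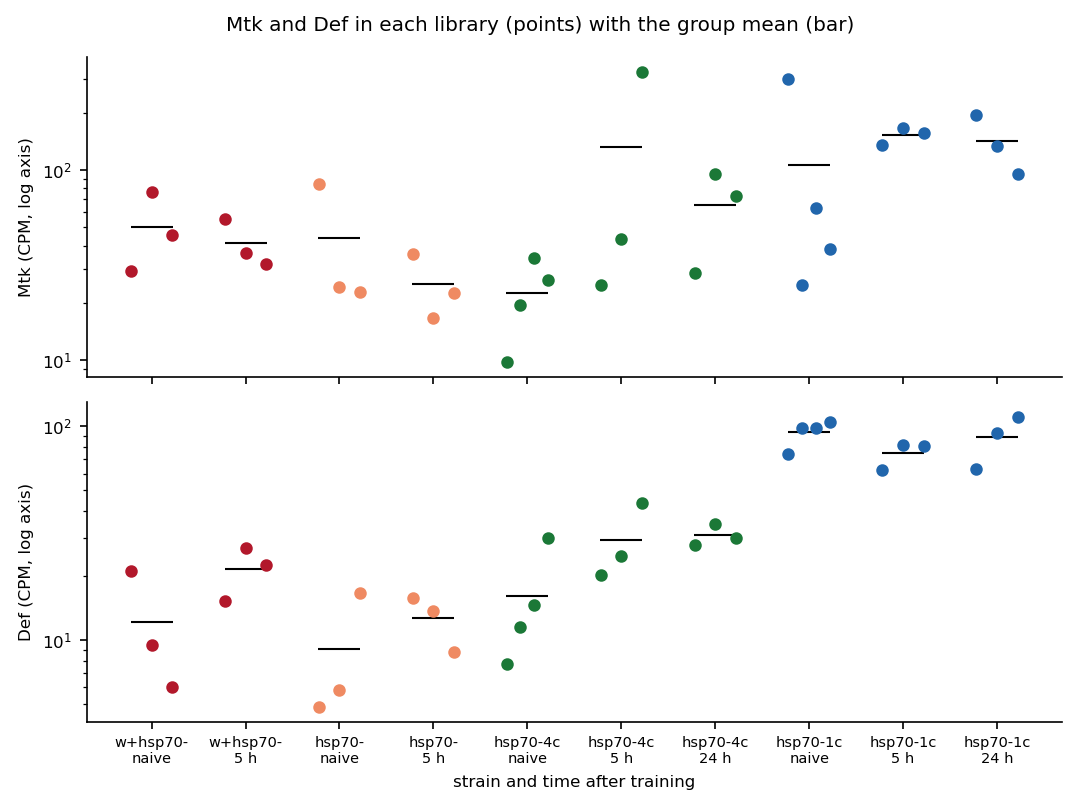
Level of Mtk (upper panel) and Def (lower panel) in CPM on log axes, for the 10 groups of strain and time; each point is a library and each bar a group mean. All 10 hsp70-1c libraries have 62.2 to 111 CPM of Def, above every library of the other strains, while Mtk libraries of 1 group are up to 13.2-fold apart.

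Def differed between strains. It was lower in naive flies of w+hsp70-, hsp70- and hsp70-4c than in naive hsp70-1c flies, 7.63-fold, 10.4-fold and 5.93-fold. After training it was 2.53-fold lower in hsp70-4c at 5 h and 2.88-fold lower at 24 h, each against hsp70-1c at the same time. Tested with edgeR's quasi-likelihood test and Benjamini-Hochberg adjustment over all genes of a comparison, Def was called in 5 of 20 comparisons (adjusted p under 0.05), with 6 at an unadjusted p under 0.05 and 5 called by DESeq2. All 5 calls had hsp70-1c as the higher strain, and none was between trained and naive flies.

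In naive flies, Def had 20.9, 9.44 and 6.05 CPM in the 3 w+hsp70- libraries. It had 4.85, 5.83 and 16.6 CPM in hsp70-, and 7.72, 11.4, 14.6 and 30.1 CPM in hsp70-4c. The 4 naive hsp70-1c libraries had 73.8, 98.0, 97.8 and 104 CPM. The 3 other strains overlapped each other, and no library of theirs came near the hsp70-1c libraries.

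The naive group means of Def were 12.1 ± 7.79 CPM for w+hsp70- (SD, n = 3), 9.10 ± 6.54 for hsp70- (n = 3), 16.0 ± 9.83 for hsp70-4c (n = 4) and 93.5 ± 13.4 for hsp70-1c (n = 4). The log2 difference of hsp70-4c from hsp70-1c was -2.57 (SE 0.47, edgeR adjusted p = 0.00476), in a comparison in which 10.1% of 10462 genes were called. That of hsp70- from hsp70-1c was -3.37 (SE 0.58, edgeR adjusted p = 0.00646, 7.53% of genes called). That of w+hsp70- from hsp70-1c was -2.93 (SE 0.55, edgeR adjusted p = 0.017, 3.15% of genes called). The calls for hsp70-4c and hsp70- passed without any 1 library of their groups. The w+hsp70- call was lost without naive w+hsp70- replicate 2 (-2.78, edgeR adjusted p = 0.0942) or replicate 3 (-2.61, edgeR adjusted p = 0.1003). The 3 differences share the naive hsp70-1c libraries.

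Among the strains with low Def, no difference passed. Def differed by 0.44 (SE 0.66) between naive w+hsp70- and naive hsp70-, by -0.81 (SE 0.60) between naive hsp70- and naive hsp70-4c, and by -0.37 (SE 0.56) between naive w+hsp70- and naive hsp70-4c. The edgeR adjusted p of the 3 differences were 0.970, 0.432 and 0.776, in comparisons in which 0.287%, 15.9% and 9.91% of genes were called. These values do not show that the 3 strains have the same level.

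At 5 h after training, Def had 20.04, 24.8 and 43.5 CPM in hsp70-4c and 62.2, 81.8 and 80.4 CPM in hsp70-1c. The groups did not overlap. The log2 difference of hsp70-4c from hsp70-1c was -1.34 (SE 0.31, edgeR adjusted p = 0.0332), with 5.61% of 10521 genes called. The call was lost without hsp70-1c replicate 1, 2 or 3 (edgeR adjusted p = 0.0517, 0.117 and 0.103) and without hsp70-4c replicate 1 or 2 (edgeR adjusted p = 0.0984 and 0.129), with differences of -1.46 to -1.12. It was also lost with no filter on low counts (edgeR adjusted p = 0.0708) and with all libraries in 1 fit (edgeR adjusted p = 0.0516).

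At 24 h, Def had 27.8, 34.9 and 29.8 CPM in hsp70-4c and 63.0, 92.6 and 111 CPM in hsp70-1c. Again the groups did not overlap. The log2 difference was -1.53 (SE 0.21, edgeR adjusted p = 0.0044), with 4.2% of 10214 genes called, and it passed without any 1 of the 6 libraries. Between trained w+hsp70- (15.2, 26.9 and 22.5 CPM) and trained hsp70- (15.7, 13.7 and 8.76 CPM) at 5 h the libraries overlapped, and the log2 difference of 0.74 did not pass (SE 0.35, edgeR adjusted p = 0.724, 0.266% of genes called).

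No difference of Def between trained and naive flies was called in any strain by the edgeR test of group means. In w+hsp70- the 5 h libraries (15.2, 26.9 and 22.5 CPM) overlapped the naive ones (20.9, 9.44 and 6.05 CPM), with a log2 difference of 0.79 (SE 0.53, edgeR adjusted p = 0.690, 1.93% of genes called). In hsp70- the difference was 0.51 (SE 0.50, edgeR adjusted p = 0.922), where 0.0305% of genes were called. In hsp70-1c it was -0.32 (SE 0.19, edgeR adjusted p = 0.448), where 3.51% were called. In that comparison 4 of 8 fat body markers tested were lower at 5 h than in naive flies and 0 were higher, with sums of 2523 to 3025 CPM at 5 h and 4574 to 5937 CPM in naive flies, and their part in the value of Def was not tested.

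In hsp70-4c, Def averaged 16.0 ± 9.83 CPM in naive flies (SD, n = 4), 29.5 ± 12.4 at 5 h (n = 3) and 30.8 ± 3.65 at 24 h (n = 3). The log2 difference from naive was 0.90 at 5 h (SE 0.46, edgeR adjusted p = 0.295, 5.48% of genes called) and 0.95 at 24 h (SE 0.46, edgeR adjusted p = 0.374, 0.923% called). Naive replicate 4, at 30.1 CPM, lay among the trained libraries, and the other naive libraries lay below all of them. At 24 h against 5 h the difference was 0.05 (SE 0.47, edgeR adjusted p = 0.984, 0.981% called).

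In hsp70-1c, Def averaged 93.5 ± 13.4 CPM in naive flies (SD, n = 4), 74.8 ± 10.9 at 5 h (n = 3) and 88.8 ± 24.1 at 24 h (n = 3). The log2 difference of 24 h from naive was -0.07 (SE 0.19, edgeR adjusted p = 0.944), in a comparison in which 0% of 10514 genes were called. That of 24 h from 5 h was 0.25 (SE 0.20, edgeR adjusted p = 0.812, 1.36% called).

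The 5 h change of Def in hsp70-4c minus that in hsp70-1c was 1.23 (SE 0.50, unadjusted p = 0.0271 and edgeR adjusted p = 0.512), with 0.0465% of 10764 genes called. At 24 h the same difference was 1.04 (SE 0.50, edgeR adjusted p = 0.992), with 0% called. For w+hsp70- minus hsp70- at 5 h it was 0.30 (SE 0.78, edgeR adjusted p = 1.00), with 0% of 10223 genes called. None of the 3 passed, so a strain difference in the response of Def to training was not shown.

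From the highest group mean to the lowest, Def ran through naive, 24 h and 5 h hsp70-1c flies (93.5, 88.8 and 74.8 CPM), 24 h and 5 h hsp70-4c flies (30.8 and 29.5), 5 h w+hsp70- flies (21.5), naive hsp70-4c flies (16.0), 5 h hsp70- flies (12.7), naive w+hsp70- flies (12.1) and naive hsp70- flies (9.10). Libraries of neighbours in this order overlapped at every step except that from hsp70-1c to hsp70-4c.

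**Figure D2:**
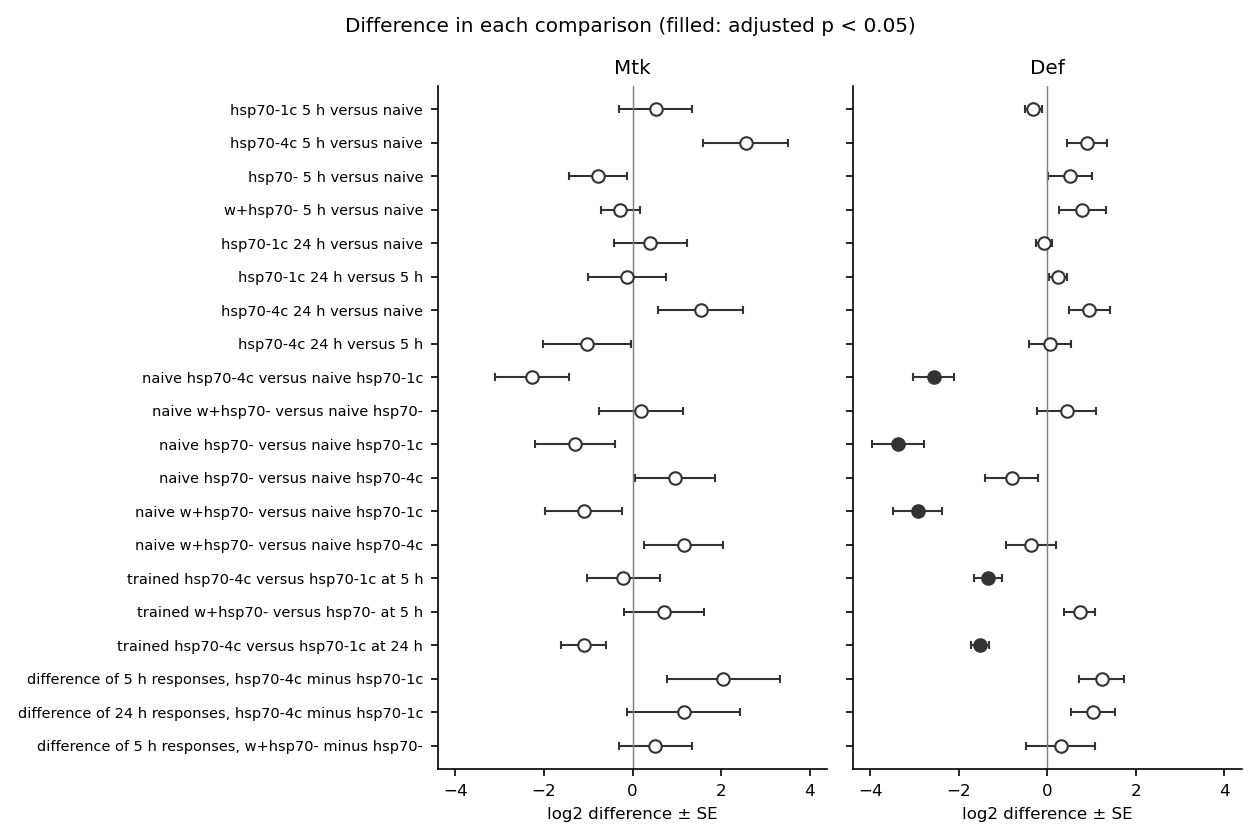
Log2 difference of Mtk (left) and Def (right) with its SE in each of the 20 comparisons; filled points passed an edgeR adjusted p under 0.05. Def has 5 filled points, from -3.37 to -1.34, all with hsp70-1c as the second group, and Mtk has 0.

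Markers of cells that can make the peptides were set beside the strain difference of Def. Haemocytes are the fly's blood cells. In naive flies, 1 of 8 haemocyte markers was higher and 5 were lower in hsp70-4c, set against hsp70-1c, the largest being Sr-CI, a scavenger receptor, by -1.21 (SE 0.12, edgeR adjusted p = 1.2e-06), where 10.1% of all genes were called. Their summed level was 322 to 348 CPM in naive hsp70-4c libraries and 396 to 414 CPM in naive hsp70-1c libraries. At 5 h, 1 of the 8 was lower in hsp70-4c (5.61% of all genes called) and the sums were 321 to 361 CPM in hsp70-4c and 353 to 381 in hsp70-1c. For naive w+hsp70- and for naive hsp70-, each set against naive hsp70-1c, 1 of 8 was lower, again Sr-CI, and 0 were higher, where 3.15% and 7.53% of all genes were called. At 24 h, 2 were lower in hsp70-4c (4.2% of all genes called) and the sums were 312 to 344 CPM in hsp70-4c and 385 to 419 in hsp70-1c. Of the 2 crystal cell markers found, PPO2, a prophenoloxidase, was lower in naive hsp70-4c than in naive hsp70-1c by -1.31 (SE 0.25, edgeR adjusted p = 0.0048). There 10.1% of all genes were called, and the other marker, lz, did not pass. Against hsp70-1c, PPO2 did not pass in naive hsp70- (-0.874, SE 0.271) or naive w+hsp70- (-0.305, SE 0.263). Nor did it pass in trained hsp70-4c at 5 h (-0.215, SE 0.17) or 24 h (-0.434, SE 0.23).

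Of 9 fat body markers tested, 0 passed between naive hsp70-4c and naive hsp70-1c, where 10.1% of all genes did. Their sums over all 11 markers were 2439 to 3300 CPM in naive hsp70-4c and 4574 to 5937 CPM in naive hsp70-1c. The sums do not stand for every marker. Lsp2 differed the most, by -1.96 (SE 0.56, edgeR adjusted p = 0.051). The marker with the most reads, apolpp, differed by only -0.14 (SE 0.11). In naive hsp70- the sums were 1633 to 2221 CPM, with 4 of 9 markers lower than in hsp70-1c (7.53% of all genes called). In naive w+hsp70- they were 1946 to 2506 CPM, with 3 of 9 lower (3.15% of all genes called). At 5 h the sums were 2496 to 3767 CPM in hsp70-4c and 2523 to 3025 CPM in hsp70-1c, which overlapped. At 24 h they were 2781 to 3519 CPM in hsp70-4c and 3902 to 4635 CPM in hsp70-1c, which did not. Fbp1 and Fbp2, larval fat body genes, had at most 3 counts in any library. Yp1 and Yp2, yolk protein genes among the 9 tested, had at most 37 and 29 counts in any library of these male heads. They add little to the counts of markers that passed. The part of these markers in the differences of Def was not tested, and in RNA of whole heads fewer cells of a type and less RNA per cell cannot be told apart.

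Mtk differed between libraries of 1 group by up to 13.2-fold (hsp70-4c at 5 h) and by as little as 1.22-fold (hsp70-1c at 5 h). It was called in 0 of 20 comparisons by edgeR, with 2 at an unadjusted p under 0.05 and 1 called by DESeq2. Its lowest library had 9.78 CPM, in naive hsp70-4c, and its highest 328 CPM, in hsp70-4c at 5 h.

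In naive flies, Mtk had 29.5, 76.4 and 45.2 CPM in w+hsp70- and 83.9, 24.3 and 22.7 CPM in hsp70-. It had 9.78, 19.5, 34.5 and 26.3 CPM in hsp70-4c, and 299, 24.7, 63.3 and 38.4 CPM in hsp70-1c. The 4 strains overlapped, and hsp70-1c replicate 1 stood far above its 3 fellow libraries.

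The log2 difference of naive hsp70-4c from naive hsp70-1c was -2.26 (SE 0.84, unadjusted p = 0.0216 and edgeR adjusted p = 0.141). DESeq2 called it (-2.25, adjusted p = 0.0351), and without hsp70-1c naive replicate 1 the edgeR difference was -0.93 (adjusted p = 0.532). The other naive differences of Mtk were -1.11 (SE 0.88) for w+hsp70- and -1.30 (SE 0.90) for hsp70- from hsp70-1c, and 1.16 (SE 0.89) for w+hsp70- and 0.97 (SE 0.91) for hsp70- from hsp70-4c. Without hsp70-1c naive replicate 1 the differences from hsp70-1c were 0.22 for w+hsp70- and 0.04 for hsp70-, so their sign turned. Naive w+hsp70- differed from naive hsp70- by 0.19 (SE 0.95).

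After training, Mtk had 24.9, 43.4 and 328 CPM in hsp70-4c at 5 h and 28.7, 95.1 and 72.9 CPM at 24 h. It had 136, 166 and 157 CPM in hsp70-1c at 5 h and 195, 134 and 94.8 CPM at 24 h. At 5 h it had 55.1, 36.8 and 32.2 CPM in w+hsp70- and 36.2, 16.7 and 22.7 CPM in hsp70-. The 3 hsp70-1c libraries at 5 h lay close together, while replicate 3 of hsp70-4c stood far above its fellow libraries.

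In hsp70-4c the log2 difference of Mtk from naive was 2.56 at 5 h (SE 0.96, unadjusted p = 0.0312 and edgeR adjusted p = 0.174) and 1.54 at 24 h (SE 0.96, edgeR adjusted p = 0.502). Without hsp70-4c 5 h replicate 3 the 5 h difference was 0.59 (edgeR adjusted p = 0.696). In hsp70-1c it was 0.52 at 5 h (SE 0.82, edgeR adjusted p = 0.821) and 0.41 at 24 h (SE 0.82, edgeR adjusted p = 0.926). Without hsp70-1c naive replicate 1 the 5 h difference was 1.84 (SE 0.38, edgeR adjusted p = 0.0621). The size of the 5 h difference in hsp70-1c thus turned on 1 naive library, and it passed neither with it nor without it.

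In w+hsp70- the 5 h difference of Mtk from naive was -0.27 (SE 0.45, edgeR adjusted p = 0.899), and in hsp70- it was -0.77 (SE 0.66, edgeR adjusted p = 0.913). At 24 h against 5 h it was -1.02 (SE 0.99) in hsp70-4c and -0.12 (SE 0.88) in hsp70-1c. Between strains at 5 h, hsp70-4c differed from hsp70-1c by -0.21 (SE 0.83, edgeR adjusted p = 0.956), and without hsp70-4c 5 h replicate 3 by -2.17 (SE 0.38, adjusted p = 0.0145). Mtk differed by 0.71 (SE 0.90) between trained w+hsp70- and trained hsp70-, and by -1.11 (SE 0.51, edgeR adjusted p = 0.435) between hsp70-4c and hsp70-1c at 24 h. Responses differed by 2.06 (SE 1.28) at 5 h and 1.16 (SE 1.28) at 24 h for hsp70-4c minus hsp70-1c, and by 0.51 (SE 0.83) for w+hsp70- minus hsp70-.

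From the highest group mean to the lowest, Mtk ran through hsp70-1c at 5 h (153 ± 15.5 CPM, SD, n = 3), hsp70-1c at 24 h (141 ± 50.3), hsp70-4c at 5 h (132 ± 170) and naive hsp70-1c (106 ± 130, n = 4). Lower followed hsp70-4c at 24 h (65.6 ± 33.8), naive w+hsp70- (50.4 ± 23.9), naive hsp70- (43.7 ± 34.9), w+hsp70- at 5 h (41.4 ± 12.1), hsp70- at 5 h (mean 25.2, libraries 16.7 to 36.2) and naive hsp70-4c (22.5 ± 10.5, n = 4). Libraries of neighbours in this order overlapped at every step.

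Both genes were more variable between replicates than most genes. The biological coefficient of variation of the fit over all groups was 0.683 for Mtk and 0.381 for Def, against a median of 0.108 over 10843 genes, with 153 genes above Mtk and 444 above Def. Differences between the 10 groups made up 53.1% of the variance of log2 CPM for Mtk and 87.1% for Def, against a median of 45.3% over all genes. The SD of log2 CPM within groups was 1.02 for Mtk and 0.58 for Def, against a median of 0.19.

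Within groups Mtk and Def showed little relation. Over the deviations of the 32 libraries from their group means, Pearson's r of log2 CPM between Mtk and Def was 0.03, which ranked Def 5011 of 10842 genes by r with Mtk. Without the 2 libraries farthest from their group mean in Mtk it was -0.10. In naive hsp70-1c, replicate 1 had the highest Mtk (299 CPM) and the lowest Def (73.8 CPM) of the 4 libraries. In hsp70-4c at 5 h, replicate 3 was the highest for both (328 CPM of Mtk and 43.5 CPM of Def). With group means kept, r between Mtk and Def over the 32 libraries was 0.55, which ranked Def 237 of 10842 genes by r with Mtk. The hsp70-1c libraries form a cluster of their own in Def, which enters that value.

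**Figure D3:**
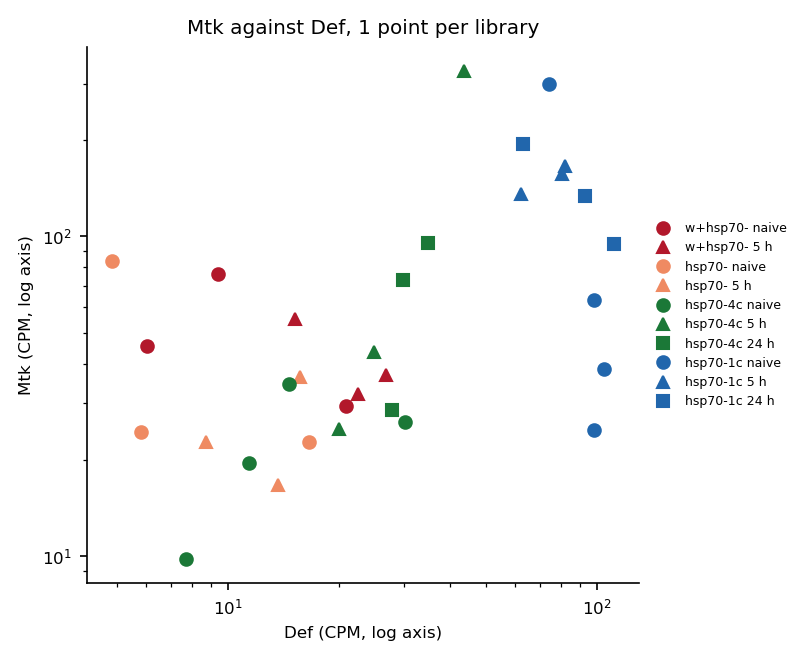
Mtk against Def in CPM on log axes, 1 point for each of the 32 libraries, with colours for strains and shapes for times. The hsp70-1c libraries form a column at 62.2 to 111 CPM of Def that spans 24.7 to 299 CPM of Mtk.

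The genes whose pattern was most like that of Mtk were named by correlation. By deviations from group means over 32 libraries and 10843 genes, the 5 highest Pearson's r were with IBIN (0.91), a short gene named for its induction by infection, Mtkl (0.88), the metchnikowin-like gene, AttC (0.85), an attacin, Dro (0.84), which encodes drosocin, and CG45045 (0.84). Over libraries without removing group means they were IBIN, CG45045, Mtkl, AttC and DptB, a diptericin, with r of 0.84 to 0.90. The libraries of a group share strain, time and scaling, so these values describe likeness only.

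For Def the 5 highest over libraries were Shmt, a serine hydroxymethyltransferase of folate metabolism (0.90), CG9547 (0.89), CG16758 (0.89), CG3902 (0.88) and comm2 (0.87). Within groups its highest r were lower: lncRNA:CR44442 (0.69), CG43680 (0.68), spirit, a serine protease upstream of Toll (0.68), CysRS, a cysteinyl-tRNA synthetase (0.64), and a gene with no symbol in the reference table (0.63). None of these 10 was among the listed antimicrobial peptides. Over libraries, with group means kept, 7 of those 11 peptides had an r over 0.5 with Def (median 0.66, highest 0.81 with DptA), against 454 of 10842 other genes, and the separate level of the hsp70-1c libraries enters these values.

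The 11 other antimicrobial peptides (attacins, diptericins, cecropins and drosocin) ranked differently by their r with Mtk and with Def. With Mtk, 9 of 11 had a within-group r over 0.5 (median 0.74), against 317 of all 10842 other genes and a median of 0.00. With Def, 0 of 11 had (median 0.16), against 42 of all other genes and a median of 0.01. Without hsp70-1c naive replicate 1 and hsp70-4c 5 h replicate 3, the 2 libraries farthest from their group mean in Mtk, 6 of 11 had an r over 0.5 with Mtk (median 0.51) and 0 of 11 with Def (median 0.12). Of 16 other Toll-induced genes, mostly Bomanins, 9 had an r over 0.5 with Mtk (median 0.53) and 0 with Def (median -0.19). Without the 2 libraries the counts were 12 and 0. Over the 30 libraries left, the count for all other genes was not made, so the counts without the 2 libraries have no background.

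**Figure D4:**
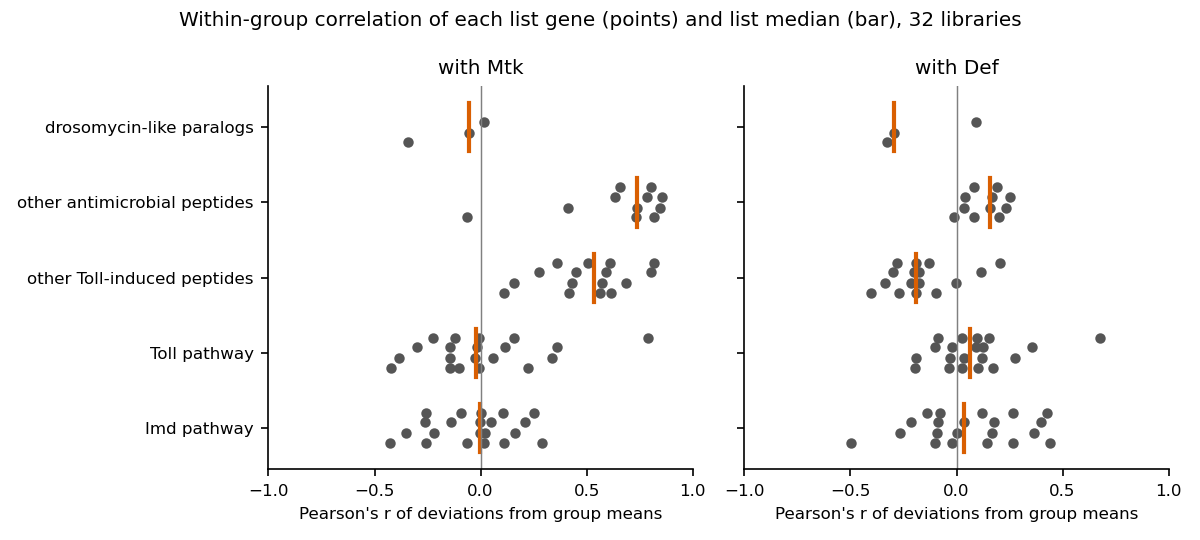
Pearson's r of deviations from group means over 32 libraries, for each gene of 5 lists (points) with Mtk (left) and Def (right); bars are list medians. Other antimicrobial peptides have a median of 0.74 with Mtk and 0.16 with Def, and Toll and Imd pathway genes centre near 0 with both.

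The 2 libraries with outlying Mtk, singled out after their values were seen, were also high in the other peptides. In naive hsp70-1c, replicate 1 had the highest level of its group in 10 of 11 other antimicrobial peptides, for example 325 CPM of AttC against 11.1 to 62.9 in its 3 fellow libraries, and 96.5 CPM of Dro against 2.65 to 24.7. AttD was the exception, at 2.13 CPM against 3.9 to 6.62. CecB, counted among the 10, had 0.1181 CPM against 0 to 0.1025, which is too low to rank. In hsp70-4c at 5 h, replicate 3 had the highest level in 11 of 11, for example 409 CPM of AttC against 37.5 and 45.1, and 108 CPM of Dro against 8.38 and 9.87. How many of all genes were highest in either library was not counted.

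The other Toll-induced genes were set beside these peptides, with BaraA1 at 0 CPM in all libraries of both groups. In naive hsp70-1c replicate 1, their levels were 0.781-fold (BomT1) to 1.44-fold (SPH93) of the highest fellow library, with Dso2 next at 1.27-fold. In hsp70-4c 5 h replicate 3 they were 0.746-fold (BomBc2) to 5.66-fold (SPH93), with BomBc3 next at 1.44-fold and BomS1 at 1.15-fold. SPH93 was low in both groups, at 4.14 CPM against 0.442 to 2.87 in naive hsp70-1c. In hsp70-4c at 5 h it had 8.21 CPM against 0.262 and 1.45, so its folds rest on values near the floor. The 2 libraries, in the same order, had 8.8 and 7.94 assigned reads (1e+06), gut sums of 5691 and 9651 CPM, haemocyte sums of 411 and 321 CPM, and fat body sums of 5937 and 2526 CPM. Fellow libraries had gut sums of 5069 to 23620 CPM in naive hsp70-1c and of 12350 and 16660 CPM in hsp70-4c at 5 h, and fat body sums of 4574 to 5560 and of 2496 and 3767 CPM. The part of these in the peptide levels was not tested.

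Among the other antimicrobial peptides, 6 of 9 tested were lower in naive hsp70-4c than in naive hsp70-1c and 0 were higher, where 10.1% of all genes were called (median log2 difference -2.48, against -0.00 over all genes). AttB differed by -1.67 (SE 0.38), AttA by -2.13 (SE 0.51), AttC by -3.91 (SE 0.98) and AttD by -2.48 (SE 0.67), with edgeR adjusted p of 0.016 to 0.032. Without hsp70-1c naive replicate 1, 6 of 9 passed as lower as well, with a median of -1.45. DptA, a diptericin, had 0.901 to 2.63 CPM in naive hsp70-4c and 8.7 to 174 in naive hsp70-1c, and also passed. For naive hsp70- from naive hsp70-1c, 2 of 9 were lower (7.53% of all genes called), and for naive w+hsp70- from naive hsp70-1c 1 of 9 (3.15% called), which became 3 of 9 without that library. Between trained hsp70-4c and hsp70-1c, 0 of 10 passed at 5 h (median -0.86, 5.61% of all genes called) and 0 of 10 at 24 h (median -1.54, 4.2% called). Without hsp70-4c 5 h replicate 3 the 5 h median was -2.86 with 0 of 11 passing.

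After training, 1 of 11 other antimicrobial peptides was higher in hsp70-1c at 5 h (CecB), 0 of 9 in hsp70-4c, 1 of 6 in hsp70- (AttA, by 1.92, SE 0.18) and 2 of 7 in w+hsp70- (CecA2 by 2.18, SE 0.38, and CecA1 by 1.72, SE 0.36). Of all genes, 3.51%, 5.48%, 0.0305% and 1.93% were called in these comparisons. The list medians were 1.62, 4.03, 1.68 and 2.38 in the same order, against 0.00 to 0.01 over all genes. They cover only peptides that passed the count filter, and a gene can pass it through its trained libraries alone. CecB had 0 to 0.118 CPM in naive hsp70-1c libraries, so its call rests on values near the floor. Without hsp70-4c 5 h replicate 3 the hsp70-4c median was 1.97, and without hsp70-1c naive replicate 1 the hsp70-1c median was 2.75 and CecB did not pass (0 of 11). Of 16 other Toll-induced genes, 6 were higher in hsp70-4c at 5 h (5.48% of all genes called), among them BomS1 by 0.72 (SE 0.11). In w+hsp70- at 5 h, 2 were lower (1.93% called), BomS6 by -0.51 (SE 0.10) and BomBc2 by -0.40 (SE 0.09). AttA and AttB, and likewise CecA1 and CecA2, are near-identical copies, so reads shared between them may be split or lost and their single values are uncertain.

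Drosomycin belongs to a family of drosomycin-like genes on chromosome 3L, of which Drsl4 and Drsl5 were abundant in heads. Drsl5 had 599 to 2244 CPM over the 32 libraries and Drsl4 208 to 892 CPM. Drsl2 had 2 to 18 counts, Drsl3 0 to 10 and Drsl6 0 to 3 counts a library. Drsl1 had 0 counts in all 32 libraries.

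Drsl5 was lower in hsp70-4c than in each other strain in naive flies. In naive flies it had 817, 1186, 1133 and 962 CPM in hsp70-4c and 1789, 1681, 1684 and 1801 CPM in hsp70-1c, with no overlap. The log2 difference was -0.78 (SE 0.12, edgeR adjusted p = 2.7e-04) in naive flies, -0.98 (SE 0.12, edgeR adjusted p = 1.2e-04) at 5 h and -0.88 (SE 0.12, edgeR adjusted p = 0.00195) at 24 h. It was higher in naive w+hsp70- than in naive hsp70-4c by 0.89 (SE 0.13) and in naive hsp70- by 0.87 (SE 0.13), and Drsl4 by 0.68 (SE 0.17) and 0.65 (SE 0.17). Set over naive hsp70-1c, Drsl5 differed by 0.11 (SE 0.13) in naive w+hsp70- and by 0.08 (SE 0.13) in naive hsp70-, and neither passed. The photoreceptor markers summed to 21340 to 29940 CPM in hsp70-4c libraries, against 30570 to 42760 CPM in hsp70-1c, 28150 to 40620 in w+hsp70- and 28960 to 37820 in hsp70-, and their part in Drsl5 was not tested.

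At 5 h in w+hsp70-, Drsl5 had 1467, 1381 and 1471 CPM, against 1982, 1855 and 1837 CPM in naive flies (log2 difference -0.39, SE 0.07, edgeR adjusted p = 0.00855). Drsl4 had 500.1, 556 and 568 CPM at 5 h, against 735, 735 and 717 CPM in naive flies (-0.43, SE 0.08, edgeR adjusted p = 0.00945). In the other strains the 5 h differences of Drsl5 were -0.39 (SE 0.15) in hsp70-, -0.39 (SE 0.15) in hsp70-4c and -0.18 (SE 0.09) in hsp70-1c, and none of the 3 passed. Reads shared between drosomycin-like genes make their single values less certain.

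**Figure D5:**
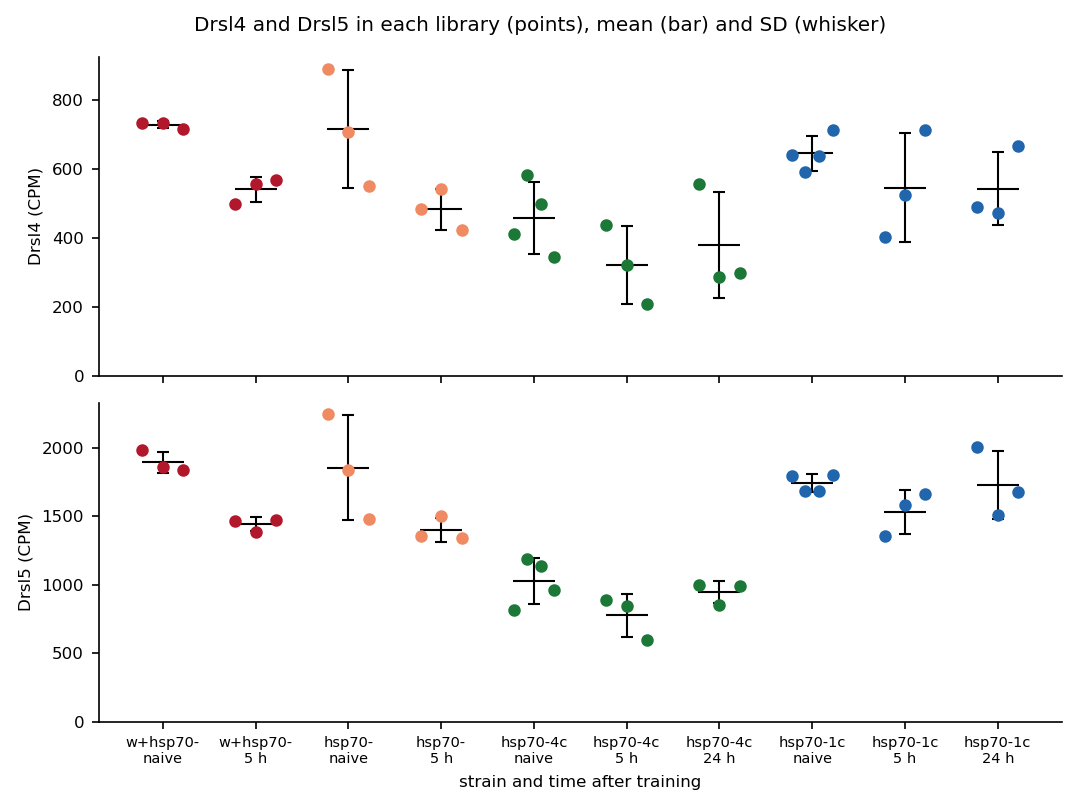
Level of Drsl4 (upper panel) and Drsl5 (lower panel) in CPM from 0, for the 10 groups of strain and time; points are libraries, bars group means and whiskers SDs. All 10 hsp70-4c libraries have 599 to 1186 CPM of Drsl5, below the 1340 to 2244 CPM of the other strains.

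Genes of the Toll and Imd pathways were counted beside the strain differences. The lists hold inhibitors as well as activators, so a lower level of a listed gene does not give the direction of pathway activity. In naive hsp70-4c against naive hsp70-1c, 1 of 21 Imd pathway genes was higher and 3 were lower, where 10.1% of all genes were called. PGRP-LC, the membrane receptor of Imd, differed by -0.81 (SE 0.10), PGRP-LA, a related receptor gene, by -0.69 (SE 0.08), Rel, the pathway's NF-kappaB factor, by -0.41 (SE 0.09) and Fadd, an adaptor, by 0.75 (SE 0.14). At 24 h the differences were -0.69 (SE 0.14) for PGRP-LC, -0.56 (SE 0.10) for PGRP-LA and 0.78 (SE 0.17) for Fadd, and 1 of 19 genes was higher and 2 were lower (4.2% of all genes called). At 5 h, 1 of 19 was higher and 4 were lower (5.61% of all genes called), among them PGRP-LC by -0.72 (SE 0.17) and Rel by -0.39 (SE 0.10), and without hsp70-4c 5 h replicate 3 0 were higher and 2 lower.

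In w+hsp70- against hsp70-1c in naive flies, where Def was also lower, 0 of 21 Imd genes were higher and 3 were lower (3.15% of all genes called): PGRP-LB by -0.71 (SE 0.14), PGRP-LF by -0.69 (SE 0.17) and pirk, a feedback inhibitor of the pathway. Without hsp70-1c naive replicate 1, 1 of 21 was lower. In hsp70- against hsp70-1c, 0 of 21 passed in either direction, where 7.53% of all genes did. PGRP-LC was higher in naive w+hsp70- than in naive hsp70-4c by 0.61 (SE 0.11), and in naive hsp70- by 0.72 (SE 0.11).

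Of 20 Toll pathway genes tested, 1 was higher and 1 lower in naive hsp70-4c than in naive hsp70-1c, a share near the 10.1% of all genes called. PGRP-SD, a secreted recognition protein, differed by -1.04 (SE 0.25) and GNBP1, a partner of such proteins, by 0.50 (SE 0.14). PGRP-SD also differed from hsp70-1c by -1.20 (SE 0.28) in naive w+hsp70- and -1.05 (SE 0.28) in naive hsp70-, and was lower in hsp70-4c at 24 h by -0.69 (SE 0.11). Within groups PGRP-SD had an r of 0.79 with Mtk, the highest of the Toll list and 1 of 20 over 0.5, and spirit was the 1 of 20 over 0.5 with Def. After training, grass, a serine protease upstream of Toll, was lower in hsp70-1c at 5 h by -0.36 (SE 0.09, 1 of 20 with 3.51% of all genes called), and 0 of 20 Toll genes passed in the 3 other strains at 5 h. Of the Imd genes, PGRP-LF was higher at 5 h in hsp70-1c by 0.62 (SE 0.12) and PGRP-LB in w+hsp70- by 0.51 (SE 0.12), and 0 passed in hsp70- and hsp70-4c.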

How the data were processed

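Directional libraries of fly head RNA were read as 75-base single ends, per the labels' protocols. The authors used Trimmomatic, STAR 2.5.0a and featureCounts 1.5.0-p1 with build dm6, as named in the submitters' processing notes. Strand setting and annotation release are not given in the sources used here. The deposited files hold raw counts of reads per gene, 1 file a library. Of 17559 genes, 17253 had a symbol in the reference table. Read-status lines stayed out of library sizes.

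Differences were tested in R 4.3.3 with edgeR 4.0.16 on the counts: filterByExpr, TMM scaling, 1 mean per group, and the robust quasi-likelihood test (2-sided), with Benjamini-Hochberg adjustment over all genes tested. An adjusted p under 0.05 was called. SE is the absolute log2 difference over the square root of F. Fits held every library of a strain for its training comparisons, every library of a time for strain comparisons, and both strains for differences of responses. CPM use TMM effective sizes over all 32 libraries, SDs are over libraries, and a prior count of 2 enters log2 CPM for correlations. The p-values measure the spread between replicate pools of flies. Named genes were the members, the drosomycin-like genes, the 5 most correlated genes by each measure and the called genes of a list with the lowest p, beside examples chosen after their values were seen. The members and lists were chosen with earlier results of these data known. Alternatives were DESeq2 1.42.0, its size factors, no filter, all libraries in 1 fit, a replicate block and leaving out each library. The fits were tested on simulated data. Figures were drawn with matplotlib 3.10.9.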

Additional observations from a re-analysis of the deposited data

Results flagged for a closer look

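In naive hsp70-1c flies, the highest of the 4 libraries had 299.2 CPM of Mtk (replicate 1), far from the 24.7, 63.3 and 38.4 CPM of the others. Its gap to the nearest library was 0.859 of the group's range, above Dixon's critical value for 4 samples. On the log2 CPM scale, tried after seeing the data, the same ratio was 0.623 and did not pass that value. Chance alone would mark about 1 group in 20. The comparisons of Mtk without this library stand beside their results.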

How the results depend on the processing

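Of the tests of Mtk and Def under other settings, 469 kept their direction and side of the threshold, 10 were weaker, 4 stronger and 21 reversed, and all 104 alternative group means moved by less than 1 SD. Replicate numbers did not pair the samples: in 0 of 17 comparisons did every same-numbered pair correlate over 0.1 (from -0.374 to 0.443). With the replicate block, Def in hsp70-4c against naive was 1.377 at 5 h (edgeR adjusted p = 0.00862) and 1.491 at 24 h (0.0113), and naive w+hsp70- against hsp70-1c was -2.72 (0.0787); the block changed no other call. DESeq2 gave -2.251 for Mtk in naive hsp70-4c against hsp70-1c. For Def in trained hsp70-4c against hsp70-1c at 5 h, no filter gave -1.334 and all libraries in 1 fit -1.339. The cause was not tested.

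Leaving out 1 library, log2 differences of Mtk ranged from -1.141 to 0.105 at 5 h against naive in hsp70-, from -0.551 to 0.153 in w+hsp70-, and at 24 h against 5 h from -1.511 to 0.955 in hsp70-4c and -0.42 to 0.099 in hsp70-1c. Between naive strains Mtk ranged from -0.238 to 1.094 (w+hsp70- against hsp70-), -2.203 to 0.035 (hsp70- against hsp70-1c) and -1.534 to 0.224 (w+hsp70- against hsp70-1c), and between trained hsp70-4c and hsp70-1c at 5 h from -2.166 to 0.291. Its response differences ranged from -0.177 to 1.511 (24 h, hsp70-4c minus hsp70-1c) and -0.383 to 0.946 (w+hsp70- minus hsp70-). Def ranged from -0.278 to 0.125 at 24 h against naive in hsp70-1c, -0.163 to 0.468 at 24 h against 5 h in hsp70-4c, -0.236 to 1.2 in naive w+hsp70- against hsp70-, -3.607 to -2.609 against hsp70-1c and -1.04 to 0.129 against hsp70-4c. It ranged from -1.738 to -1.119 in trained hsp70-4c against hsp70-1c at 5 h and from -0.466 to 0.971 for the response difference of w+hsp70- minus hsp70-. With 24 to 160 counts of Def in w+hsp70- and hsp70- libraries and the spread of Mtk between pools, small changes were not detectable.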
